A study of Mus musculus with 21 samples.

Results

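Notch1+ cells of the mouse retina at postnatal day 3 (P3) were compared with Notch1+ cells at the day of birth (P0). The arrays were chosen by their labels alone. They are the 3 arrays of Notch1+ cells at P3 and the 3 at P0, which makes 6 of the 21 arrays in the series. Across them, 12609 genes were tested. Both groups came from retinas of C57BL/6 mice with no transgene, knockout or treatment stated, and the cells had been pulled down on magnetic microbeads through a biotinylated antibody to Notch1. Each sample held 200000 to 500000 cells per the labels, which give no sex and do not say how many pups contributed. The series calls its replicates biological. The p-values below rest on the spread between separate samples of one group, pooled over all 8 groups. The SE of a gene can thus be larger or smaller than its P0 and P3 arrays alone would give. The other arrays of the series, Notch1+ cells at P7 and P14 and Glast+ cells from P7 to P28, entered the model for its estimate of spread, and P7 and P14 are quoted where a gene is followed beyond P3.

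Notch1 is a cell-surface receptor that, when bound by a ligand on a neighbouring cell, is cut to release a fragment that acts in the nucleus and turns on repressors such as Hes1 and Hes5. In the retina this signal keeps progenitor cells dividing and delays neuron formation. Around birth the mouse retina has finished making most ganglion cells and turns to rods, bipolar cells and Müller glia, which span the tissue and support its neurons, while the number of dividing progenitors declines.

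The array probes are long oligonucleotides for mouse transcripts, read in a single colour. All levels below are log2 normalized intensities, and a difference of 1 on that scale is a doubling. The scanner software found 55.4% to 69.8% of the transcript probes on each of the 6 arrays, and up to 34.1% lay at or below their local background. Precision is limited by the small number of arrays. Across probes, replicates correlated with r = 0.977 to 0.989 at P0 and 0.975 to 0.995 at P3. P3 replicate 1 stood apart from its group. It correlated with P3 replicates 2 and 3 at 0.977 and 0.975, and with P0 replicate 3, imaged on the same scan day, at 0.985. The other 4 arrays were imaged on scan day 2. Among the called genes, P3 replicate 1 was the P3 array closest to the P0 mean in 171 of 251. Without it 280 genes were called in place of 251.

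The receptor used for the capture was at the top of the scale at both ages. Notch1 measured 15.11, 15.07 and 15.30 on the P0 arrays and 15.11, 15.16 and 15.07 on the P3 arrays. The groups overlapped, and the difference was -0.04 ± 0.19 (SE, n = 3 per age, adjusted p = 1.0). The probe was saturated on 1 P0 array and 2 P3 arrays, so a difference at the top of the range could be compressed. The progenitor factors Pax6 and Sox2 were also at high, overlapping levels, with P0 and P3 means of 12.64 and 12.66, and 12.02 and 11.94. The sign of the Notch1, Pax6 and Sox2 differences turned under other scalings or with single arrays left out.

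Of the 12609 genes tested, 251 differed between P3 and P0 at an adjusted p under 0.05 (limma, Benjamini-Hochberg), which is 1.99%. Of these, 94 genes (0.745%) were higher and 157 genes (1.25%) lower at P3, and 168 differed by more than 2-fold. Under median scaling, 31 genes were called higher and 118 lower. The median difference over all genes was -0.00218, 49.5% of the differences were positive, and 1385 genes had an unadjusted p under 0.05. All 251 had P0 and P3 arrays that did not overlap. Over all genes tested, 1170 (9.28%) had every P3 array above every P0 array and 1502 (11.9%) every P3 array below. Scan day 1 held 1 array per age, so it allows no test of its own. The 4 arrays of scan day 2 alone gave 16 calls, and 178 when the Glast+ arrays were kept for the spread. Leaving out 1 array changed the number of calls to between 81 (without P3 replicate 2) and 280 (without P3 replicate 1). The number was 95, 146 and 114 without P0 replicate 1, 2 and 3, and 94 without P3 replicate 3. Of the 75 called genes named below, 34 were called whichever P0 or P3 array was left out, and the others are listed in their paragraphs.

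**Figure D1:**
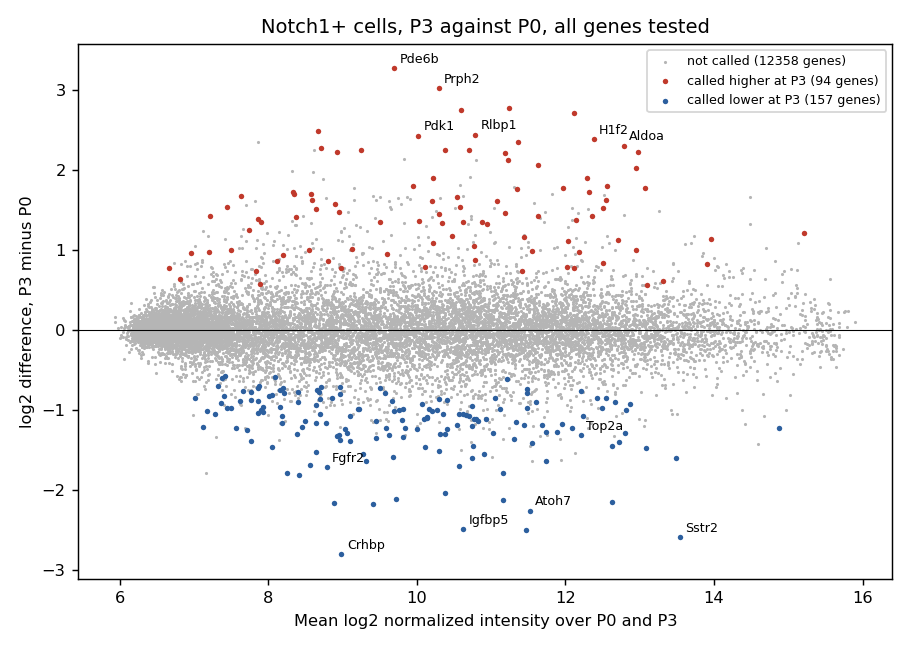
Each point is a gene, with its mean log2 normalized intensity over the P0 and P3 arrays on the horizontal axis and the log2 difference, P3 minus P0, on the vertical axis. The 94 genes called higher are red and the 157 called lower are blue, and the largest differences are +3.27 (Pde6b) and -2.80 (Crhbp).

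The largest rises included genes of the rod photoreceptor. Pde6b, the beta catalytic subunit of the rod phosphodiesterase, measured 7.84, 8.15 and 8.19 at P0 and 10.94, 11.55 and 11.51 at P3. The lowest P3 array was far above the highest P0 array, a 9.67-fold rise (log2 difference 3.27 ± 0.53 SE, adjusted p = 0.00256). Prph2, a membrane protein that shapes the rim of outer segment discs, measured 8.54, 8.94 and 8.86 at P0 and 11.09, 12.20 and 12.11 at P3. It rose 8.12-fold (3.02 ± 0.51, adjusted p = 0.00367), with P3 replicate 1 the lowest of its age. Nrl, the transcription factor that commits photoreceptor precursors to the rod fate, measured 10.97, 10.82 and 10.48 at P0 and 13.02, 13.71 and 13.69 at P3. It rose 6.56-fold (2.71 ± 0.57, adjusted p = 0.0161).

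In the rod phototransduction list, 3 of 18 members tested rose and 0 fell, against 0.745% and 1.25% of all genes, and the list's median difference was 0.233. Beside Pde6b these were Sag, the arrestin that ends the rod light response (2.78 ± 0.58, adjusted p = 0.0166), and Pdc, phosducin, which binds transducin subunits (2.13 ± 0.45, adjusted p = 0.0194). A second probe showed 1.48 for Sag and 0.896 for Pdc. Other members did not pass the test. The channel subunit Cngb1 had a difference of 2.26 ± 0.62 (adjusted p = 0.0758) and the phosphodiesterase gamma subunit Pde6g 1.64 ± 0.51 (adjusted p = 0.126), both with non-overlapping arrays. Cngb1 was called under 4 of 20 alternatives and Pde6g under 1. Gnat1, rod transducin, was at 9.77 at P0 and 9.61 at P3. The kinase Grk1 was found on none of the 6 arrays. The rod list was therefore uneven at P3, with some genes several-fold up, Gnat1 at a similar mean at both ages and Grk1 not found.

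In the list of outer segment and cilium genes, 3 of 17 rose and 0 fell, against 0.745% and 1.25% of all genes. The median was 1.24, and 13 of 17 had P3 arrays all above the P0 arrays (9.28% of all genes did). Rom1, the partner of Prph2 in disc rims, rose from 11.94 ± 0.15 to 13.96 ± 0.31 (SD; adjusted p = 0.00644). Mak, a kinase of the photoreceptor cilium, rose from 9.58 ± 0.28 to 11.83 ± 0.40 (adjusted p = 0.0303), with its other probe at 1.18. With the mean of a gene's probes in place of the brightest probe, the calls of Sag, Pdc and Mak ended. Cdhr1, a cadherin of the outer segment base, had a difference of 2.12 ± 0.65 (adjusted p = 0.123). Among photoreceptor transcription factors, Nrl was the 1 of 10 that rose, against 0.745% of all genes, and the median was 0.674. Crx, the homeodomain factor of both photoreceptor types, had a difference of 1.52 ± 0.63 (adjusted p = 0.328), and the cone factor Rxrg 1.27 ± 0.36 (adjusted p = 0.0828). Of 10 cone genes 2 rose and 0 fell, against 0.745% and 1.25% of all genes. They were Gnb3 (1.73 ± 0.43, adjusted p = 0.0449) and Gngt2 (1.80 ± 0.44, adjusted p = 0.0453), subunits of cone transducin.

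The medians of the rod, outer segment and factor lists were positive on both scan days, 0.194, 0.847 and 0.281 on day 1 and 0.333, 1.45 and 0.876 on day 2. The summed intensity of the 18 rod members was 11223 to 12250 at P0 and 21960 to 29227 at P3. In bulk samples, more cells of a type and more RNA per cell cannot be told apart. Under median scaling Pde6b and Prph2 kept their calls, while Sag, Pdc, Rom1, Mak, Nrl, Gnb3 and Gngt2 lost theirs (adjusted p 0.0551, 0.0906, 0.0943, 0.102, 0.0837, 0.298 and 0.318). The call of Gngt2 also ended in the authors' values. Pde6b, Prph2 and Rom1 were called whichever array was left out. Calls ended without P0 replicate 1 or 3 or P3 replicate 2 or 3 for Sag (2.53 to 3.07, adjusted p up to 0.111) and Pdc (1.93 to 2.39, up to 0.122), without those arrays or P0 replicate 2 for Mak (2.11 to 2.48, up to 0.149), Nrl (2.58 to 2.94, up to 0.0965) and Gngt2 (1.65 to 2.03, up to 0.223), and without any of the 6 for Gnb3 (1.61 to 1.88, up to 0.211).

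The promoter of Sag is shown as an example of these photoreceptor genes, because it holds a match to TAATCC, a letter pattern bound by Crx and Otx2. The window is chr1:87803430-87803729 on the plus strand of GRCm38.p6, from RefSeq, covering 250 bases before to 50 after the listed start. Capitals mark the match, which reads on the opposite strand and begins 87 bases before the start.
Sag: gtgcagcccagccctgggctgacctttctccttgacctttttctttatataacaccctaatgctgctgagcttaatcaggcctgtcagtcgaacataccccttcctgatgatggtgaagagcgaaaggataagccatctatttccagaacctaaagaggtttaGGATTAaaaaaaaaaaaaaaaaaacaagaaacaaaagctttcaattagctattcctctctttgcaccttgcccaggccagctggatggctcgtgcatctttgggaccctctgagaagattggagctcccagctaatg
Searched on both strands, TAATCC was in 2 of the 8 windows of called photoreceptor genes (those of Sag and Mak) and in 7.06% of all 32851 promoter windows of the same length.

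**Figure D2:**
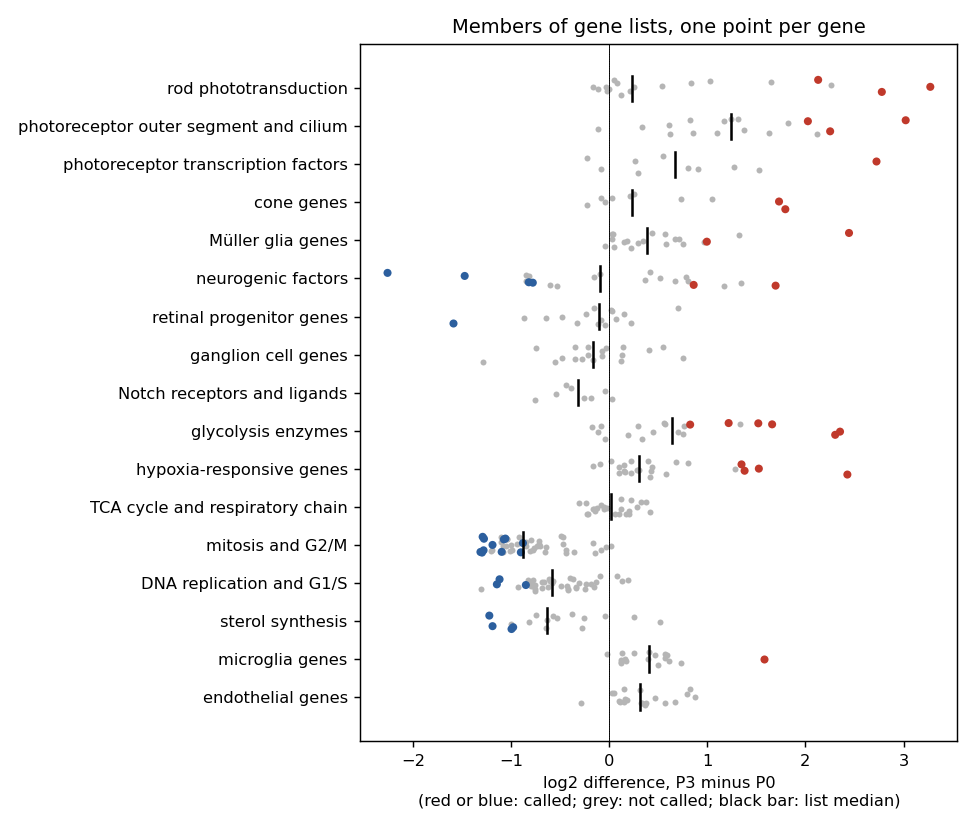
Each point is a gene of the named list, placed by its log2 difference, P3 minus P0. Red and blue points were called higher and lower, grey points were not called, and black bars mark list medians, which run from -0.879 (mitosis) to 1.24 (outer segment and cilium).

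Genes of Müller glia also included rises. Rlbp1, the retinaldehyde-binding protein of the visual cycle, measured 9.62, 9.63 and 9.42 at P0 and 11.91, 12.13 and 11.96 at P3. The arrays of each age lay close together and the gene rose 5.44-fold (2.44 ± 0.48, adjusted p = 0.0122). Apoe, the lipid carrier apolipoprotein E, rose from 12.45 ± 0.12 to 13.44 ± 0.09 (SD; adjusted p = 0.0148). These were 2 of 20 Müller members tested, with 0 lower, against 0.745% and 1.25% of all genes. The median was 0.389, and 19 of the 20 differences were positive (49.5% over all genes). Slc1a3, the glial glutamate transporter also known as Glast, had P3 arrays all above the P0 arrays (13.98 ± 0.22 and 14.73 ± 0.09) but did not pass the test (0.75 ± 0.41, adjusted p = 0.602). Glul, glutamine synthetase, overlapped between ages (0.44 ± 0.37, adjusted p = 0.874). Dbi, the acyl-CoA-binding protein, had a difference of 1.33 ± 0.44 (adjusted p = 0.165). For Rlbp1, Slc1a3 and Dbi the SD at P14, which entered the pooled spread, was 1.43, 1.19 and 1.45. Slc1a3 and Dbi were each called under 1 of 20 alternatives. The water channel Aqp4 was found on none of the 6 arrays, and the astrocyte filament gene Gfap on 1. Both Müller calls ended without P0 replicate 1 or 3 or P3 replicate 2 or 3 (Rlbp1 2.38 to 2.49, adjusted p up to 0.0708, and Apoe 0.957 to 1.06, up to 0.078) and under median scaling (adjusted p = 0.0531 and 0.138). Apoe also lost its call in the authors' values.

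Neurogenic transcription factors moved in both directions. Of 21 tested, 2 rose and 4 fell, against 0.745% and 1.25% of all genes, and the median was -0.0923. Atoh7, the factor that gives progenitors the competence to form ganglion cells, fell most. It measured 12.90, 12.59 and 12.45 at P0 and 11.03, 10.08 and 10.06 at P3, a 4.78-fold fall (-2.26 ± 0.24, adjusted p = 6.72e-05), and its mean was 6.41 at P14. Foxn4, a factor for amacrine and horizontal cells, fell from 13.82 ± 0.17 to 12.35 ± 0.49 (SD; adjusted p = 0.00955). Onecut1, a horizontal cell factor, fell by 0.82 (adjusted p = 0.0243) and Dlx1, a homeobox gene of early retinal neurons, by 0.78 (adjusted p = 0.0223). Ptf1a, which acts with Foxn4 toward amacrine and horizontal fates, had a difference of -0.85 ± 0.22 (adjusted p = 0.0575).

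The factors that rose were Neurod2 and Nhlh1, basic helix-loop-helix genes of differentiating neurons. Neurod2 measured 7.77, 7.73 and 7.68 at P0 and 9.50, 9.22 and 9.57 at P3 (1.70 ± 0.26, adjusted p = 0.00166). Nhlh1 rose from 7.69 ± 0.15 to 8.55 ± 0.22 (SD; adjusted p = 0.0272). Meis2, a homeobox gene on the amacrine and horizontal list, rose from 10.60 ± 0.19 to 12.66 ± 0.16 (adjusted p = 0.0198). It was the 1 of 11 members that did, against 0.745% of all genes. Atoh7 and Neurod2 kept their calls whichever array was left out. Single arrays, both ages included, ended those of Foxn4 (-1.75 to -1.29, adjusted p up to 0.0741, without P0 replicate 3 or P3 replicate 2 or 3), Dlx1 (-0.89 to -0.69, up to 0.145, without P0 replicate 1 or 3 or P3 replicate 1 or 2), Onecut1 (-0.91 to -0.69, up to 0.122, without any except P0 replicate 3), Nhlh1 (0.77 to 0.99, up to 0.167) and Meis2 (1.95 to 2.12, up to 0.111), the last pair without any except P3 replicate 1. Under median scaling Dlx1, Onecut1, Nhlh1 and Meis2 lost their calls (adjusted p 0.112, 0.0914, 0.0514 and 0.0669).

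Of 16 retinal progenitor genes tested, 1 fell and 0 rose, against 1.25% and 0.745% of all genes, with a median of -0.101. The gene that fell was Fgf15, a fibroblast growth factor secreted by retinal progenitors. It measured 14.17 to 14.37 over the P0 arrays and 12.79, 12.62 and 12.64 at P3 (-1.59 ± 0.39, adjusted p = 0.0449), and its mean went on to 10.82 at P7 and 8.55 at P14. The arrays of each age were close, with an SD of 0.098 at P0 and 0.090 at P3. At P7 and P14, which entered the pooled spread, the SD was 0.45 and 1.17. The call ended without any 1 of the 6 (-1.65 to -1.55, adjusted p 0.0719 to 0.177) and under median scaling (adjusted p = 0.0837). The Wnt receptor gene Fzd5 had a difference of -0.87 ± 0.22 (adjusted p = 0.0573) and the filament gene Nes 0.70 ± 0.26 (adjusted p = 0.239). Their other probes showed -0.19 and -0.0092. Ccnd1, cyclin D1, was saturated on all 6 arrays, so no size is given.

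No tested gene of the Notch pathway lists was called, where 1.99% of all genes were. None of 8 receptors and ligands, 16 processing and transcription genes or 8 targets passed the test (0 higher and 0 lower in each list). The medians were -0.32, 0.046 and -0.0897. Lists this short can hold no call at the share over all genes, so the counts say little about the pathway. The ligand Dll4 had the lowest difference, -0.75 ± 0.35 (adjusted p = 0.435). Notch4, best known from vessels, was at -0.55 ± 0.36 and Notch3 at -0.44 ± 0.36 (adjusted p = 0.743 and 0.856). The other probe showed -0.083 for Dll4 and -0.22 for Notch4. In 3 of the 8, Dll4, Notch4 and Notch3, all P3 arrays lay below all P0 arrays (11.9% of all genes did). The progenitor ligands Dll1 and Dll3 were at -0.25 ± 0.39 and -0.39 ± 0.66 (adjusted p = 0.989 and 0.996). Jag1 was at -0.19 ± 0.45 (adjusted p = 1.0), and Jag2 was found on none of the 6 arrays. Among targets, Hes5 measured 12.84 at P0 and 12.20 at P3 (-0.64 ± 0.60, adjusted p = 0.91), Hey1 11.41 and 10.89 (adjusted p = 0.718), and Hey2 7.51 and 8.30 (0.79 ± 0.26, adjusted p = 0.167). The standard errors of the receptors and ligands named ran from 0.19 to 0.66, and a missed threshold does not show that their levels were the same. Notch2 was not analysed here.

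Several genes of cell division fell to P3. In the mitosis list, 11 of 49 members fell and 0 rose, against 1.25% and 0.745% of all genes. The median was -0.879, and 48 of 49 differences were negative, whereas 49.5% of all genes had a positive difference. In 38 of the 49 all P3 arrays lay below all P0 arrays (11.9% of all genes did). Top2a, the topoisomerase that untangles chromosomes, measured 12.86, 13.04 and 12.70 at P0 and 11.70, 11.26 and 11.70 at P3 (-1.31 ± 0.20, adjusted p = 0.00172). Ndc80 and Spc25 encode subunits of the kinetochore complex that grips microtubules. Ndc80 fell by 1.09 (SE 0.18, adjusted p = 0.00278) and Spc25 by 1.07 (SE 0.22, adjusted p = 0.0154). Members of the chromosomal passenger complex, which corrects spindle attachments, also fell. These were Aurkb, the kinase (-1.28 ± 0.28, adjusted p = 0.0213), Birc5, survivin (-1.28 ± 0.31, adjusted p = 0.0449), Cdca8, borealin (-1.19 ± 0.27, adjusted p = 0.0308), and Incenp, the scaffold (-0.90 ± 0.22, adjusted p = 0.0434). The others were the checkpoint kinase Ttk (-0.88 ± 0.16), the kinase Melk (-1.30 ± 0.25), the cohesin protector Sgo2a (-1.06 ± 0.22) and Cdca2 (-1.29 ± 0.30). Other probes showed smaller differences for Cdca8 (-0.355) and Melk (-0.517).

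In the DNA replication list, 3 of 41 members fell and 0 rose, against 1.25% and 0.745% of all genes. The list had a median of -0.586 and 38 negative differences. Pole and Pold1 encode the catalytic subunits of the polymerases that copy the leading and lagging strands. Pole fell from 11.49 ± 0.12 to 10.37 ± 0.40 (SD; adjusted p = 0.0187) and Pold1 from 12.85 ± 0.06 to 12.01 ± 0.24 (adjusted p = 0.014). Rpa2, a subunit of the single-strand binding complex, fell from 11.91 ± 0.16 to 10.76 ± 0.47 (adjusted p = 0.0429), but its other probe showed -0.455 and the call ended with the mean of its probes. Mcm10 had a difference of -1.31 ± 0.37 (adjusted p = 0.0845) and Orc6 -0.93 ± 0.24 (adjusted p = 0.0584). None of 16 inhibitors of cyclin-dependent kinases and cell cycle exit genes passed the test (median 0.02), among them Gadd45a (-1.32 ± 0.43, adjusted p = 0.157) and Btg1 (0.77 ± 0.30, adjusted p = 0.273).

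P3 replicate 1 lay between its group and P0 for division genes. The summed intensity of the 49 mitosis members was 408917 to 429766 at P0, 275097 on P3 replicate 1, and 202035 and 207973 on P3 replicates 2 and 3. The median difference was -0.665 on scan day 1 and -1.01 on scan day 2 for mitosis, and -0.291 and -0.775 for replication. With 1 array left out, 2 to 17 mitosis members and 0 to 4 replication members were called lower. Under median scaling Ndc80, Ttk, Spc25, Sgo2a, Incenp and Pold1 lost their calls (adjusted p 0.0531, 0.104, 0.0626, 0.0515, 0.0682 and 0.0919). Top2a and Ndc80 kept their calls whichever array was left out, and Ttk lost its call without P3 replicate 2 (adjusted p = 0.0547). The calls of Melk (P0 replicate 1, P3 replicate 2 or 3, adjusted p up to 0.0838), Sgo2a (any P0 array or P3 replicate 2, up to 0.111), and Spc25 and Pold1 (P0 replicate 1 or 3, P3 replicate 2 or 3, up to 0.112 and 0.102) ended without the arrays given. Those of Aurkb, Cdca8, Cdca2, Incenp, Birc5, Pole and Rpa2 ended without any array except P3 replicate 1 (adjusted p up to 0.127, 0.193, 0.177, 0.219, 0.232, 0.119 and 0.254).

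The promoters of Top2a and Cdca8 are shown because both hold letter patterns of cell cycle promoters, TTTGAA (the cell cycle homology region) and CCAAT (bound by NF-Y). The windows, from RefSeq in GRCm38.p6 and 250 bases before to 50 after the listed start, are chr11:99024140-99024439 and chr4:124936868-124937167, both on the minus strand. Capitals mark both patterns on either strand, and in Cdca8 a TTTGAA and a CCAAT match overlap.
Top2a: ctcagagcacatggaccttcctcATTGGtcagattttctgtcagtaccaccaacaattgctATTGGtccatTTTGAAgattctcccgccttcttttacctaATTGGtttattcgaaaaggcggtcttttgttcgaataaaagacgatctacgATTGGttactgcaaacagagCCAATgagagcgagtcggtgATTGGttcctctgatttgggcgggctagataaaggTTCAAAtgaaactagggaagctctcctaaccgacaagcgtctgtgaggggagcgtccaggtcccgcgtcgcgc
Cdca8: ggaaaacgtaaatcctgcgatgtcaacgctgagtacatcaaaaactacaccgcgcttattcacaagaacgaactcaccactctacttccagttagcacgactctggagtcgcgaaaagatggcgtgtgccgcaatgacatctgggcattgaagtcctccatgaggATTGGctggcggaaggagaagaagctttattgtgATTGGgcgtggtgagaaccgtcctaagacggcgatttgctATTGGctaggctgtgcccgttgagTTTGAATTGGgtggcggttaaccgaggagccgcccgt
The Top2a window holds 8 matches in all and the Cdca8 window 5. TTTGAA was in 5 of the 11 windows of called mitosis and replication genes and in 17.9% of all promoter windows, and CCAAT in 7 of 11 and in 37.4%. The E2F pattern GCGGGAA was in 3 of 11 windows (Pold1, Rpa2 and Sgo2a) and in 4.6% of all.

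Several glycolytic enzymes rose to P3. Of 20 tested, 6 rose and 0 fell, against 0.745% and 1.25% of all genes. The median difference was 0.639, and 13 had P3 arrays all above the P0 arrays (9.28% of all genes did). Aldoa, the aldolase that splits fructose bisphosphate, measured 11.61, 11.92 and 11.37 at P0 and 13.54, 14.13 and 14.14 at P3. It rose 4.94-fold with a wide gap between the groups (2.30 ± 0.24, adjusted p = 6.4e-05). The step before it, catalysed by phosphofructokinase, had called rises for the liver form Pfkl (2.35 ± 0.29, adjusted p = 0.000224) and the platelet form Pfkp (1.52 ± 0.30, adjusted p = 0.0139), while the muscle form Pfkm was at 0.19 ± 0.28. Pfkl measured 10.66, 9.34 and 10.56 at P0 and 12.48, 12.45 and 12.68 at P3. Its probe was found on 2 of 3 arrays at each age and was kept through other groups. It was not tested when probes had to be found at P0 or P3, and the other alternatives gave 1.20 to 2.59. The Pfkp probes ranged from 0.08 to 1.52. Pfkfb3, which makes the activator of phosphofructokinase, rose by 1.66 ± 0.35 (adjusted p = 0.0179) and Gpi1, glucose phosphate isomerase, by 0.83 ± 0.16 (adjusted p = 0.0128).

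Eno1, enolase, measured 14.71, 14.76 and 14.34 at P0 and 15.47 on P3 replicate 1, with the other 2 P3 arrays saturated and higher (adjusted p = 0.0195). Its difference of 1.22 was 0.44 under median scaling (adjusted p = 1.0) and 0.39 in the authors' values (adjusted p = 0.7). Enzymes that narrowly missed the test were Pgam1 (1.33 ± 0.34, adjusted p = 0.0519), Tpi1 (0.76 ± 0.20, adjusted p = 0.0619) and Pgk1 (0.71 ± 0.19, adjusted p = 0.0727). Under median scaling Tpi1 and Pgk1 were at 0.35 and 0.41. Ldha, lactate dehydrogenase A, was saturated on all P3 arrays, so the size of its difference is uncertain. It was 0.75 ± 0.20 under quantile normalization (adjusted p = 0.0619) and 0.33 under median scaling. Gapdh was saturated on all 6 arrays and has no size. Slc16a3, a lactate exporter, measured 7.68, 7.55 and 7.24 at P0 and 9.20, 9.22 and 9.16 at P3 (1.70 ± 0.34, adjusted p = 0.0141). It was the 1 of 6 glucose and lactate transporters that rose, against 0.745% of all genes. The glucose transporters Slc2a1 and Slc2a3 were at 0.55 ± 0.20 and 1.03 ± 0.44 (adjusted p = 0.239 and 0.368). Of 24 genes of the TCA cycle and respiratory chain, 0 passed the test in either direction, where 1.99% of all genes did. Their median was 0.0184. A list of this size can hold no call at that share, so the count alone shows no contrast with the glycolysis list. The difference between these lists was not tested.

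**Figure D3:**
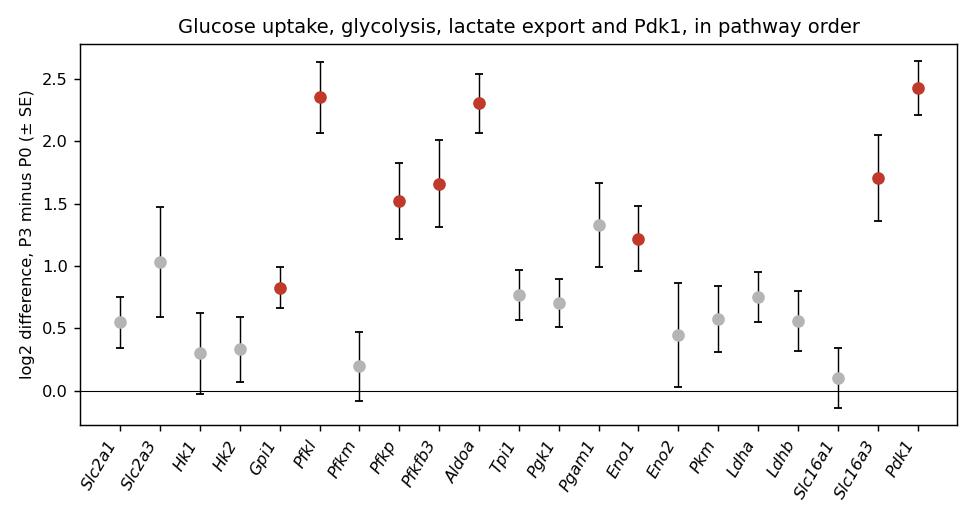
The log2 difference, P3 minus P0, is given with its standard error (3 arrays per age) for genes in the order of the pathway, from glucose uptake to lactate export and Pdk1. Red points were called higher and grey points were not called. Aldoa, Pfkl and Pdk1 lie above 2, while the hexokinases Hk1 and Hk2 lie at 0.30 and 0.33. The size of the Ldha value is uncertain, because its probe was saturated on all P3 arrays.

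Pdk1, the kinase that shuts pyruvate dehydrogenase and so holds pyruvate back from the mitochondria, had the smallest p of the named rises. It measured 8.92, 8.70 and 8.79 at P0 and 10.86, 11.48 and 11.35 at P3. The rise was 5.38-fold (2.43 ± 0.21, adjusted p = 1.22e-05), and no alternative ended the call. Pdk1 belongs to a list of genes that respond to low oxygen, in which 4 of 25 rose and 0 fell (0.745% and 1.25% of all genes did). The list had a median of 0.308 and 23 positive differences (49.5% over all genes). Bnip3, a mitochondrial protein that promotes removal of mitochondria, measured 7.34, 7.14 and 7.19 at P0 and 8.43, 8.81 and 8.47 at P3 (1.35 ± 0.18, adjusted p = 0.000587). Fam162a, another hypoxia-induced mitochondrial protein, rose by 1.53 ± 0.31 (adjusted p = 0.0137) and Ddit4, an inhibitor of mTOR signalling, by 1.38 ± 0.34 (adjusted p = 0.0449). Vegfa, the vessel growth factor, varied widely at P3, at 11.01 on replicate 1 against 13.65 and 13.38 on replicates 2 and 3, and was not called (1.29 ± 0.72, adjusted p = 0.619). None of 6 oxygen-sensing genes passed the test (median -0.0468). Hif1a, the oxygen-regulated subunit of the hypoxia-inducible factor, which is controlled largely at the protein level, had a difference of 0.83 ± 0.45 (adjusted p = 0.595).

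Aldoa, Pfkl, Pdk1 and Bnip3 were called whichever array was left out. The other calls ended without P3 replicate 2 and, apart from Gpi1, P3 replicate 3. Gpi1 also lost its call without P0 replicate 2 (0.74 to 0.92, adjusted p up to 0.0772), Slc16a3 without P0 replicate 3 (1.58 to 1.80, up to 0.0761), Pfkp without P0 replicate 1 or 2 (1.33 to 1.69, up to 0.0943), Eno1 and Fam162a without P0 replicate 1 or 3 (1.09 to 1.39, up to 0.119, and 1.38 to 1.77, up to 0.0908), and Pfkfb3 and Ddit4 without any P0 array (1.49 to 1.98, up to 0.117, and 1.07 to 1.75, up to 0.281). Under median scaling Gpi1, Pfkfb3, Fam162a and Ddit4 lost their calls beside Eno1 (adjusted p 0.431, 0.0551, 0.209 and 0.165), and Gpi1 and Ddit4 also lost theirs in the authors' values. The call of Pfkfb3 also ended with the mean of its probes. The glycolysis median was 0.626 on scan day 1 and 0.753 on scan day 2.

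The promoters of Bnip3 and Aldoa are shown because each holds ACGTG, the core letters of sites bound by hypoxia-inducible factors. The windows, from RefSeq in GRCm38.p6, are chr7:138909457-138909756 and chr7:126799205-126799504, both on the minus strand, and the Aldoa window is that of 1 of 3 listed starts. Capitals mark the match. In Bnip3 the pattern reads on both strands at the same place, and in Aldoa it reads on the opposite strand.
Bnip3: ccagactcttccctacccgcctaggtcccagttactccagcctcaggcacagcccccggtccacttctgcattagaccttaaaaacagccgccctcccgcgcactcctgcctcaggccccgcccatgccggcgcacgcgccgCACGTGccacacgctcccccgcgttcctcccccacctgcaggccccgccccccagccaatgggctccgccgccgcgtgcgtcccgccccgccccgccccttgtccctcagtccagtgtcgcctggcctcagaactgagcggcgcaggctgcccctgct
Aldoa: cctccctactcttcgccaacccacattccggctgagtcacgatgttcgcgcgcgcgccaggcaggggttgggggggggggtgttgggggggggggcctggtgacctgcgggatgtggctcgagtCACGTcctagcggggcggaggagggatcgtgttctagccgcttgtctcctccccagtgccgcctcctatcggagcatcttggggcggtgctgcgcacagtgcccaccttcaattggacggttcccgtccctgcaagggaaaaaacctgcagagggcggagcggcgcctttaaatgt
The pattern was in 8 of the 17 windows of the called glycolysis, transporter and hypoxia-responsive genes and in 19.6% of all promoter windows. By gene it was in 6 of 11, the others being Ddit4, Fam162a, Pfkfb3 and Slc16a3. The windows of Pdk1, Pfkl, Pfkp, Gpi1 and Eno1 did not hold these letters.

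Some genes of sterol synthesis fell to P3. Of 17 tested, 4 fell and 0 rose, against 1.25% and 0.745% of all genes. The median was -0.634 and 15 differences were negative. Hmgcs1, which makes the precursor HMG-CoA, measured 15.39, 15.79 and 15.26 at P0 and 14.19, 14.35 and 14.24 at P3 (-1.22 ± 0.21, adjusted p = 0.00374), with 1 P0 array saturated. Msmo1, a sterol methyl oxidase, fell from 12.03 ± 0.22 to 10.85 ± 0.37 (SD; adjusted p = 0.00481). Hsd17b7, a sterol ketoreductase, fell from 10.26 ± 0.13 to 9.26 ± 0.07 (adjusted p = 0.000739). Fdps and Mvd, enzymes of the isoprenoid part of the pathway, had differences of -1.001 ± 0.26 and -0.81 ± 0.21 (adjusted p = 0.0619 for both). Abca1, which exports cholesterol, moved the other way. It was not found on any P0 array and was found on all P3 arrays, with a log2 difference of 1.42 ± 0.29 (2.68-fold, adjusted p = 0.0141). The P0 level lay below what the scanner software found, so the size is uncertain. Scd1, a fatty acid desaturase, fell from 9.41 ± 0.28 to 7.88 ± 0.08 (adjusted p = 0.00111). It was the 1 of 9 fatty acid synthesis genes called, where 1.99% of all genes were.

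The sterol synthesis median was -0.43 on scan day 1 and -0.727 on scan day 2. Hmgcs1, Msmo1, Hsd17b7 and Scd1 kept their calls whichever array was left out, though Msmo1 lost its call under median scaling (-1.29, adjusted p = 0.121). Abca1 lost its call without P0 replicate 1 or 3 or P3 replicate 2 or 3 (1.18 to 1.86, adjusted p up to 0.107) and under median scaling (adjusted p = 0.058). The promoter of Hmgcs1 is shown because it holds CACCCCA, the core letters of a sterol regulatory element, together with CCAAT. The window, from RefSeq in GRCm38.p6, is chr13:119690101-119690400 on the plus strand, and capitals mark both patterns on either strand.
Hmgcs1: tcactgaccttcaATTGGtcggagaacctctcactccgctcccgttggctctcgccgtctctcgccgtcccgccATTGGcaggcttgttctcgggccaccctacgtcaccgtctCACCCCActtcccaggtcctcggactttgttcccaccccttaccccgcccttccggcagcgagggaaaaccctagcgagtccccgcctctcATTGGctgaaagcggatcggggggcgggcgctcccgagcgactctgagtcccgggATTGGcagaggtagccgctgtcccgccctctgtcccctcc
CACCCCA was in 1 of the 4 windows of called sterol genes and in 7.62% of all promoter windows, and CCAAT in 3 of 4.

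Neuropeptide signalling genes were among those that fell. Crhbp, which binds and sequesters corticotropin-releasing hormone, measured 10.26, 10.40 and 10.49 at P0 and 8.10, 7.46 and 7.18 at P3. It fell 6.98-fold (-2.80 ± 0.34, adjusted p = 0.000228), with P3 replicate 1 the highest of its age. Sstr2, a somatostatin receptor, was among the brightest probes at P0, at 14.80, 14.77 and 14.93, and measured 12.67, 11.97 and 12.09 at P3 (-2.59 ± 0.44, adjusted p = 0.00374). Its mean then reached 9.37 at P7 and 7.55 at P14. Gal, the neuropeptide galanin, fell from 8.72 ± 0.12 to 7.64 ± 0.21 (SD; adjusted p = 0.0024). These were the 3 of 14 neuropeptide and receptor genes called lower, with 0 higher, against 1.25% and 0.745% of all genes. The median was -0.133. All 3 kept their calls whichever array was left out.

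Igfbp5, which binds insulin-like growth factors, measured 11.71, 11.83 and 12.07 at P0 and 9.58, 9.29 and 9.27 at P3 (-2.49 ± 0.28, adjusted p = 9.34e-05). It was the 1 of 11 genes of the insulin-like growth factor axis called (median 0.0945), where 1.99% of all genes were. Its other probe showed -2.45. Igfbp7 and Igfbp4 had differences of 1.12 ± 0.33 and -0.51 ± 0.25 (adjusted p = 0.102 and 0.504). Fgfr2, a fibroblast growth factor receptor, measured 9.48, 9.68 and 9.76 at P0 and 8.43, 7.63 and 7.73 at P3 (-1.71 ± 0.21, adjusted p = 0.000247). Its 4 probes disagreed, from -1.71 to 0.07, and their mean gave -0.42 (adjusted p = 0.0791). Dio3, the deiodinase that inactivates thyroid hormone, fell from 11.39 ± 0.09 to 9.36 ± 0.53 (SD; adjusted p = 0.00353). Hhip, an inhibitor of hedgehog ligands, fell by 1.24 (SE 0.24, adjusted p = 0.0122) and Sfrp1, an inhibitor of Wnt ligands, by 0.89 (SE 0.18, adjusted p = 0.0156). They were the 1 gene called of 8 hedgehog genes and the 1 of 14 Wnt genes, where 1.99% of all genes were called. The last pair lost their calls without 4 of the 6 arrays, P0 replicate 1 or 3 or P3 replicate 2 or 3 for Hhip (-1.41 to -1.14, adjusted p up to 0.0802) and P0 replicate 1 or 2 or P3 replicate 1 or 2 for Sfrp1 (-1.04 to -0.78, up to 0.104). Sfrp1 also lost its call under median scaling (adjusted p = 0.112).

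The other large falls were in genes of varied kinds, and all were called whichever array was left out. Gcnt1, an enzyme that branches O-linked sugar chains, measured 13.80, 13.75 and 13.57 at P0 and 11.33, 11.60 and 11.75 at P3 (-2.14 ± 0.22, adjusted p = 6.72e-05). Ooep, known as an oocyte-expressed protein, measured 10.35, 9.76 and 9.79 at P0 and 7.89, 7.83 and 7.69 at P3 (-2.17 ± 0.18, adjusted p = 1.06e-05). Itgbl1, an integrin beta-like secreted protein, fell by 1.79 (SE 0.16, adjusted p = 1.64e-05), and its probe was found on 2 of 3 P3 arrays. Its 3 probes ranged from -1.79 to -0.27. Pkib, an inhibitor of protein kinase A, fell by 1.80 (SE 0.20, adjusted p = 9.34e-05). The gene 1700016K19Rik fell by 2.49 (SE 0.32), the LIM domain gene Crip3 by 2.17 (SE 0.25), Fam167a by 2.12 (SE 0.36), Tmem255a by 2.11 (SE 0.32) and the selenoprotein gene Selenov by 1.79 (SE 0.30), with adjusted p of 0.000354, 0.000158, 0.00353, 0.00172 and 0.00392.

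Among the largest rises outside the photoreceptor, glial and metabolic lists was Entpd2, an enzyme that breaks down extracellular ATP. It measured 9.13, 9.10 and 9.44 at P0 and 12.12, 11.97 and 11.82 at P3 (2.75 ± 0.55, adjusted p = 0.0141). Its SD at P14, which entered the pooled spread, was 1.82. Arhgef3, a guanine nucleotide exchange factor, measured 7.25, 7.88 and 7.15 at P0 and 9.73, 9.89 and 10.13 at P3 (2.49 ± 0.29, adjusted p = 0.000159). H1f2, a linker histone, measured 11.18, 11.17 and 11.21 at P0 and 13.76, 13.54 and 13.41 at P3 (2.39 ± 0.25, adjusted p = 6.72e-05). Anxa2, a calcium-dependent membrane-binding protein, rose by 2.26 ± 0.32 (adjusted p = 0.000974) and Htra1, a secreted serine protease, by 2.23 ± 0.30 (adjusted p = 0.000587). Ano2, a calcium-activated chloride channel, rose by 2.28 ± 0.51 (adjusted p = 0.0261) and Mapt, the microtubule-binding protein tau, by 2.25 ± 0.53 (adjusted p = 0.0345). Mapt varied at P0 (8.91, 10.26 and 8.61), and its other probe showed 0.82. The calls of Entpd2 (2.67 to 2.86, adjusted p up to 0.0721, without P0 replicate 1 or 2 or P3 replicate 2 or 3), Ano2 (2.04 to 2.63, up to 0.143, without any except P3 replicate 1) and Mapt (1.92 to 2.75, up to 0.17, without any except P0 replicate 2) ended with single arrays left out. Ano2 and Mapt also lost theirs under median scaling (adjusted p 0.0626 and 0.112), and Mapt with the mean of its probes.

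**Figure D4:**
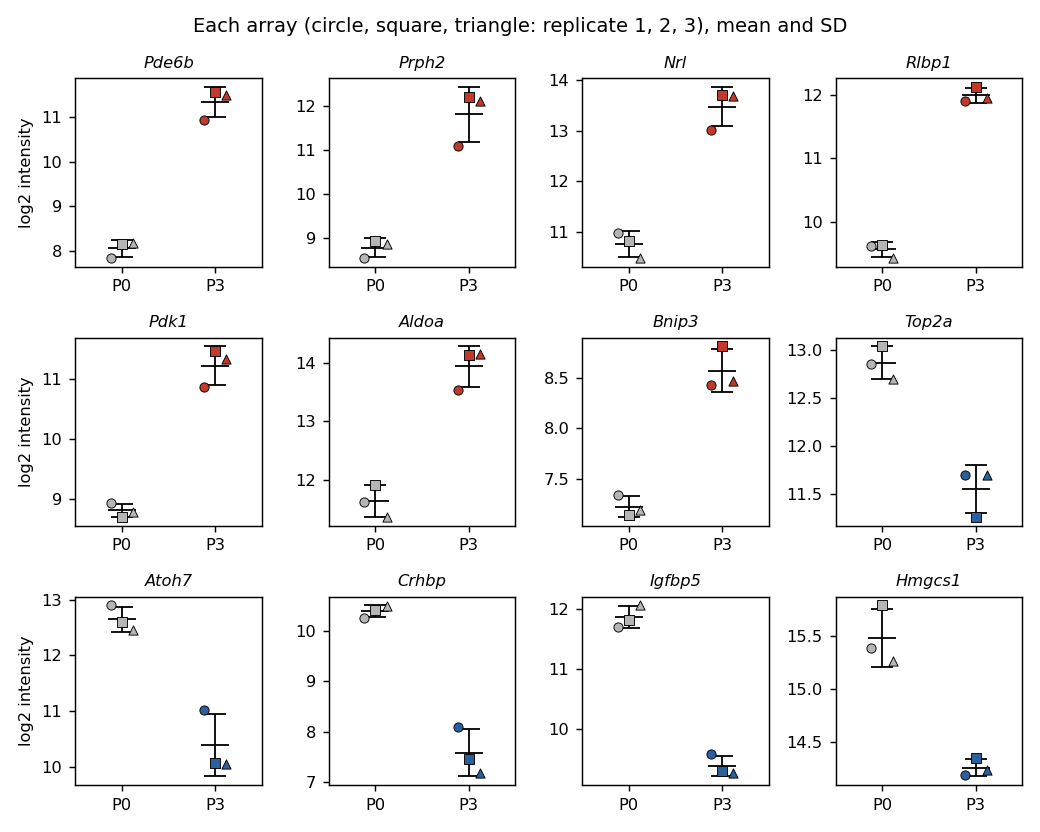
Log2 normalized intensity of 12 genes on each P0 and P3 array (circle, square and triangle for replicate 1, 2 and 3), with the mean and SD over 3 arrays; each panel has its own axis, which does not start at 0. The ages do not overlap in any panel, and P3 replicate 1 lies nearest to P0 for Prph2, Nrl, Aldoa, Atoh7 and Crhbp among others.

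Markers of other retinal and non-retinal cell types were measured for the same arrays. Over all genes 1.99% were called, so a short list without a call says little. None of 19 ganglion cell genes was called in either direction (median -0.163, summed intensity 9456 to 10380 at P0 and 7518 to 8130 at P3), and the defining factors Pou4f1 and Pou4f2 were found on none of the 6 arrays. Rbpms, a ganglion cell RNA-binding protein also made by vessel cells, was at -1.28 ± 0.39 (adjusted p = 0.125), and its other probe at -0.13. None of 11 bipolar genes was called (median 0.115), with Lhx4, a homeobox gene, at 1.66 ± 0.53 (adjusted p = 0.145). None of 22 synaptic vesicle genes was called (median 0.353), with Syp, synaptophysin, at 1.59 ± 0.41 (adjusted p = 0.055). Of 18 microglia genes, 1 rose, against 0.745% of all genes. Laptm5, a lysosomal membrane protein of blood-derived cells, went from 7.55, 9.10 and 7.69 to 10.41, 9.33 and 9.34 (adjusted p = 0.0316). P0 replicate 2 came close to the P3 arrays, and the call ended without any array except P0 replicate 2 (1.22 to 2.07, adjusted p up to 0.187) and under median scaling (adjusted p = 0.0521). The microglia list had a median of 0.402, with 17 of 18 differences positive, and its summed intensity was 1995 to 2539 at P0 and 2885 to 4177 at P3. P3 replicate 1 was the highest. P2ry12 was found on none of the 6 arrays.

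None of 21 endothelial genes was called, where 1.99% of all genes were (median 0.316, 20 positive, summed intensity 10141 to 10659 at P0 and 11405 to 12480 at P3). Kdr, the main receptor for Vegfa, was at 0.87 ± 0.33 (adjusted p = 0.254). The 7 pericyte, 9 astrocyte, 10 pigment epithelium, 11 lens and 6 erythroid genes tested gave 0 calls each, with medians between -0.0222 and 0.167. The part of microglial and endothelial RNA in the differences above was not tested. In the list of immediate-early and stress genes 1 of 25 rose, against 0.745% of all genes. Ier3 went from 9.81 ± 0.20 to 11.35 ± 0.67 (SD), with adjusted p = 0.0154. The call ended without P0 replicate 1 or 3 or P3 replicate 2 or 3 (1.32 to 1.93, up to 0.115) and under median scaling (adjusted p = 0.129). None of 17 interferon and MHC class I genes (median -0.156) or 26 chromatin and DNA methylation genes (median -0.139) was called. Dnmt1, the maintenance DNA methyltransferase, was at -0.66 ± 0.17 (adjusted p = 0.0626).

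The step from P0 to P3 was also set against the step from P3 to P7, as (P7 minus P3) minus (P3 minus P0). Over all genes 105 differed between the steps (0.833%), of which 14 were also among the 251 genes called between P3 and P0. The steps share the P3 arrays, and for a gene named for its first step the choice itself favours the opposite sign. Pdk1 was highest at P3. Its mean was 8.80 at P0, 11.23 at P3, 10.51 at P7 and 9.71 at P14, and the difference between the steps was -3.15 (SE 0.37, adjusted p = 0.000756). Bnip3 had means of 7.22, 8.57, 8.24 and 7.35 at the same ages. Aldoa and H1f2 had means of 13.94 and 13.57 at P3 and 14.40 and 13.95 at P7. Crhbp, Fgfr2 and Igfbp5 fell to P3 and had means of 7.41, 7.86 and 9.17 at P7. The photoreceptor genes had higher means again at P7, with Pde6b at 14.06, Prph2 at 13.86 and Sag at 14.87.

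**Figure D5:**
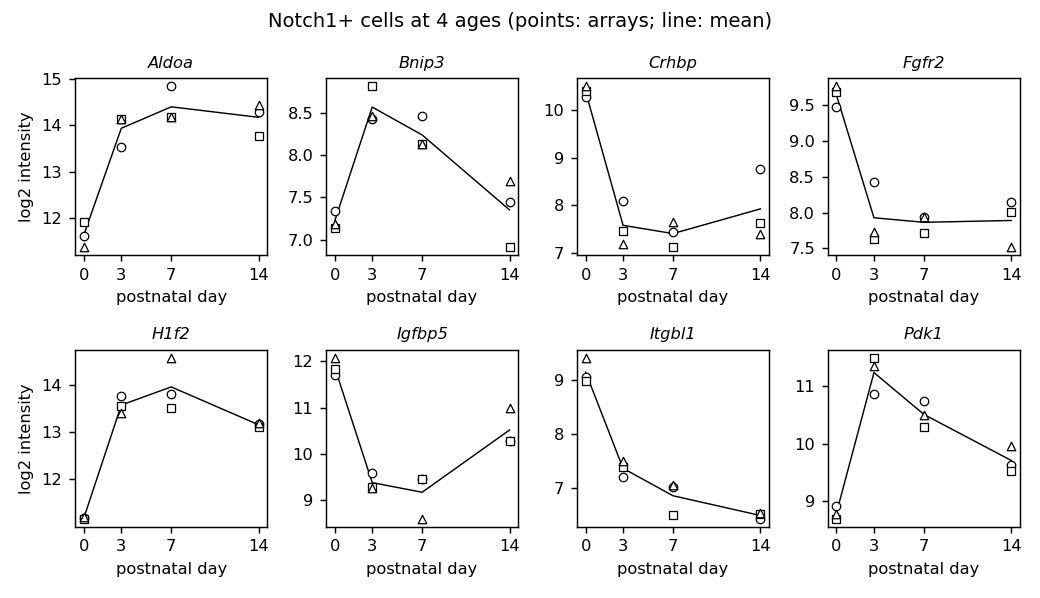
Log2 normalized intensity on each Notch1+ array (circle, square and triangle for replicate 1, 2 and 3) against postnatal day for 8 genes whose step from P0 to P3 differed from the step from P3 to P7; the line joins the means, and each axis starts above 0. Pdk1 peaks at P3 with a mean of 11.23, while Igfbp5 is at 9.38 at P3 and 10.51 at P14.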

How the data were processed

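Per the labels, RNA of immunomagnetically captured cells was amplified to biotin-labelled cRNA and detected with fluorescent streptavidin. GenePix, per the file headers, read each array of 38880 spots. The deposited scanner files hold spot and background intensity on a linear scale, with flags for spots not found. The authors' processed table, of unstated tool, holds linear background-subtracted intensity scaled per array; it served only as an alternative.

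Background correction by normexp (offset 50) used all spots, and intensities were then quantile normalized over 34312 transcript probes and put on the log2 scale, while the deposited values themselves are not log2. A probe was kept if found on every array of at least 1 of 8 groups (25264 probes). Names came from matching accessions to RefSeq genes of GRCm38.p6 (22933 probes with 1 symbol, 0 with several, 11379 with none). Each gene took its brightest kept probe (12609 genes, 4003 with several probes). Of the 251 called genes 66 had several probes, which disagreed in sign for 9. A saturated spot was 1 at 65535 scanner units, and 42 genes were saturated on all 6 arrays.

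In limma 3.58.1 (R 4.3.3) lmFit and eBayes were fitted to all 21 arrays with 1 mean per group and 13 residual degrees of freedom. A call needed an adjusted p under 0.05 (Benjamini-Hochberg, over all genes tested). A saturated value entered the fit as read, and no bound was computed from it. Genes were named by rule: 9 preset genes, the 15 largest called differences per direction with non-overlapping arrays and a probe found on all arrays of the higher group, every called member of the 39 lists, the 3 members of each list with the smallest p, and the Notch receptors and ligands. Defining markers and further members of the glycolysis and photoreceptor lists were named for their level. Some genes that the rule names are not reported here. The members and lists were chosen with earlier results of these data known. In simulated data 59% of 2-fold and 90% of 4-fold changes were recovered, and 4.49% of calls were false. This was 1 run with noise drawn independently for each gene and array. Deviations shared between arrays, such as those of a scan day, were not simulated, so these rates may not hold for the real arrays.

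Replicate numbers were tested as pairs. Deviations of equal-numbered P0 and P3 arrays correlated at -0.079, 0.55 and -0.45, so no pairing by number was used. The signs went with scan day instead. Over all pairs of a P0 and a P3 array, r was 0.064 to 0.61 within a scan day and -0.6 to -0.079 across scan days. These pairs share arrays, so their values are not independent. Within an age the deviations cancel out for each gene, so positive r in some pairs forces negative r in others. The fit behind the 251 calls had no term for scan day, which entered only in alternatives. Alternatives were other background corrections, normalizations, filters, probe summaries, priors and sets of fitted arrays, replicate and scan-day blocks, a fit within scan day 2, and leaving out each array. A fit within scan day 2 that kept the Glast+ arrays was chosen after seeing the data. Tables, motifs and figures used Python 3.11.15, matplotlib 3.10.9, pandas 2.3.3, and the R packages jsonlite 2.0.0 and data.table (1.17.8).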

Additional observations from a re-analysis of the deposited data

Results flagged for a closer look

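In 8 named genes the step from P0 to P3 differed from the step from P3 to P7, by the test of (P7 minus P3) minus (P3 minus P0) at an adjusted p under 0.05 (limma). The value for Pdk1 was -3.15, and it was called with any of the 9 arrays of the 3 ages left out (-3.52 to -2.90). Bnip3 had -1.68, a call that ended without P3 replicate 2 or 3 (adjusted p up to 0.155). Their means went from 11.23 and 8.57 at P3 to 10.51 and 8.24 at P7.

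The value was -1.84 for Aldoa and -2.00 for H1f2, whose means went from 13.94 and 13.57 at P3 to 14.40 and 13.95 at P7. It was 2.63 for Crhbp, 2.28 for Igfbp5, 1.65 for Fgfr2 and 1.28 for Itgbl1, which fell to P3 and differed less between P3 and P7. The calls of these genes rest on single arrays. With each of the 9 arrays left out in turn they ended in 5 cases for Aldoa, 8 for H1f2, 9 for Crhbp, 8 for Igfbp5, 7 for Fgfr2 and 6 for Itgbl1, with adjusted p up to 0.331, 0.201, 0.401, 0.195, 0.378 and 0.236. Both steps use the P3 arrays, so P3 values enter with opposite signs. The genes were named for their P3 minus P0 difference, which is subtracted here, so the choice favours a value of the opposite sign, as all 8 have.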

How the results depend on the processing

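The precision is limited by 3 arrays per age and by the spread pooled over all 21 arrays. The number of calls was 149 under median scaling, 602 with only the P0 and P3 arrays fitted, 164 with only the Notch1+ arrays, 16 within scan day 2 (4 arrays, fewer residual degrees of freedom) and 178 there with the Glast+ arrays kept, 376 with scan day as a block, 226 with the replicate block, and 81 to 280 with 1 array left out. The other settings gave 249 to 363. Of the calls, 62.5% were lower at P3, against 79.2% (118 lower, 31 higher) under median scaling and 31.2% within scan day 2. Of the 251 genes, 127 were also called under median scaling, 232 with the authors' values, 251 with scan day as a block and 214 with the replicate block, and 32 of the 75 called genes named in the text lost their call under median scaling. Apoe, Entpd2, Foxn4, Meis2, Pfkp and Slc16a3 were among the named genes that lost their call with only the Notch1+ arrays fitted. The count for the difference between steps ranged from 24 to 250 with 1 array left out, against 105. The cause was not tested.

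Small differences reversed. Notch1 was 0.040 without background correction and 0.032 within scan day 2, with or without the Glast+ arrays. Pax6 was -0.11 under median scaling, -0.00251 under cyclic loess and -0.16 in the authors' values, and Sox2 was 0.056 with the mean of probes. With 1 array left out, the difference ranged from -0.14 (without P0 replicate 3) to 0.25 for Pax6, from -0.35 to 0.072 (without P3 replicate 3) for Sox2, from -0.088 to 0.030 (without P0 replicate 3) for Notch1 and from -0.40 to 0.070 (without P3 replicate 1) for Jag1.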

Other observations

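Beyond the lists, 2 gene families picked out after their values were seen moved between P3 and P0. Of 16 genes for centromere proteins, which build the platform for kinetochores, 6 were called lower and 0 higher, against 1.25% and 0.745% of all genes. Their median was -0.885, with 15 negative differences. Cenpm, Cenpi, Cenpk, Cenpn, Cenpu and Cenph were the genes called, with differences of -1.24 ± 0.27, -1.11 ± 0.21, -1.08 ± 0.24, -1.08 ± 0.20, -1.02 ± 0.23 and -0.95 ± 0.19 (SE, n = 3 per age; adjusted p 0.00694 to 0.0283, limma).

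Of 54 replication-dependent histone genes, whose messages are normally made in S phase, 8 were called lower and 3 higher, against 1.25% and 0.745% of all genes. Their median was -0.576, with 44 negative differences. Lower were H2bc12 (-1.60), H2ac4 (-1.59), H3c2 (-1.55), H2bc21 (-1.46), H3c11 (-1.35), H1f5 (-1.29), H3c3 (-1.16) and H4c8 (-0.81). Higher were H1f2 (2.39), H3c15 (1.68) and H2bc4 (1.08). These genes have near-identical copies that can share signal on a probe, so values for single members are uncertain.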
